A study of Mus musculus with 18 samples.

Results

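The genes described here move cholesterol and other lipids between and within cells: Apoe, Apod and Clu, which encode secreted lipid carriers, Abca1 and Abcg1, which encode cholesterol exporters, Lpl, which encodes lipoprotein lipase, Lrp1, which encodes an endocytic lipoprotein receptor, Nr1h2, which encodes the sterol sensor liver X receptor beta, and Soat1, which encodes the enzyme that esterifies cholesterol. These 9 genes were chosen by symbol from 34620 listed genes, and all 9 passed the filter on low counts that left 17421 genes to be tested. Gene expression was measured by RNA-Seq in the microdissected granule cell layer of the ventral dentate gyrus of adult male Swiss Webster mice aged 8 to 12 weeks. The study asked how a deficit of the serotonin 1A receptor in a mother affects her sons and grandsons that carry no mutation themselves.

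All animals sequenced were genetically wild type at the receptor gene, and the groups differed in their parents and grandparents, with 2 libraries in each group. WT males had wild-type mothers and grandmothers and came from a separate wild-type line kept in parallel. F1 males came from crosses of 5HT1A-/+ females with 5HT1A-/+ males, so their fathers as well as their mothers carried the mutation, unlike those of WT and F2, and for them GEO lists the 5HT1A-/+ genotype for the mother and the grandmother. F2 males had a wild-type mother (an F1 female bred to a wild-type male) and a 5HT1A-/+ grandmother. Males came from at least 3 litters per group, the strain is outbred, and how many animals made up a library was not given in the sources used here, so the p-values measure the spread between libraries. Between 26358165 and 33727936 reads per library fell on genes, and each of the 9 genes had between 417 and 40328 reads in every library. The 12 bisulfite samples of the series are not analysed here.

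In the brain, cholesterol is made locally, because lipoproteins of the blood do not cross the blood-brain barrier. Astrocytes load it onto apolipoprotein E through ABCA1 and ABCG1, and neurons take up the particles through lipoprotein receptors such as LRP1. When sterols accumulate, oxysterols activate liver X receptors, which pair with retinoid X receptors and switch on Abca1, Abcg1 and Apoe, while SOAT1 stores surplus cholesterol as esters. Clusterin and apolipoprotein D are further carriers of brain lipid, and lipoprotein lipase releases fatty acids from lipoprotein particles.

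Promoter sequence is shown for Abca1 and Apoe because liver X receptors are known to act on both genes and because Apoe was the most abundant transcript of the set. RefSeq windows of 250 bases before to 50 bases after a transcription start (build GRCm38.p6) were at hand for 6 of the 9 genes, namely Apoe, Apod, Abca1, Lrp1, Nr1h2 and Soat1. Each window was searched on both strands for a direct repeat of AGGTCA or GGGTCA with 4 bases between the copies (DR4, the arrangement that liver X receptor dimers prefer), allowing 2 mismatches. Capitals mark such a match. The Abca1 window lies on the minus strand at chr4:53159846-53160145, and the first Apoe window on the minus strand at chr7:19699139-19699438.
Abca1: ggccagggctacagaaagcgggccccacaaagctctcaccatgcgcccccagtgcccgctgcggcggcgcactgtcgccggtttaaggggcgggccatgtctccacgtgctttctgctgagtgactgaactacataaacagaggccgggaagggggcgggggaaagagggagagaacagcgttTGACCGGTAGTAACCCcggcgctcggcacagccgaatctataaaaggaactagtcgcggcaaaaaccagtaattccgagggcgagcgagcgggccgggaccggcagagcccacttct
Apoe: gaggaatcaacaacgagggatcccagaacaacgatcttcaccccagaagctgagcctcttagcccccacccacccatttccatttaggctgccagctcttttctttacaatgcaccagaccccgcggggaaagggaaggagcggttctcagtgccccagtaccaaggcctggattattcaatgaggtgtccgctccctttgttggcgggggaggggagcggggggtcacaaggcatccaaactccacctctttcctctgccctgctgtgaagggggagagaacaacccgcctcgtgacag
In the Abca1 window the match spans positions -67 to -52 from the start with 2 mismatches, on the strand opposite to the gene. The same window holds TATAAA at -29, GGGCGG at -163 and -97, and CACGTG at -147. The best DR4 alignment in the Apoe window has 3 mismatches, at -38 to -23, which is above the limit, and the windows of Apod, Lrp1, Nr1h2 and Soat1 had best alignments with 4 mismatches. Of 32544 promoter windows, 8.54% hold a DR4 match by this rule, 35.9% hold GGGCGG, 13.6% hold TATAAA and 7.17% hold CACGTG. These matches describe letters in the window and were not tested for binding.

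Levels between genes were compared per length, as FPKM, here the normalised counts (CPM, reads per 1000000 reads on genes) divided by the summed exon length in kilobases. Apoe was the most abundant at 627 FPKM over the 6 libraries, above 99.8% of tested genes. Clu followed at 129 FPKM and Apod at 42.5 FPKM. Lpl at 20.6 FPKM and Lrp1 at 19.8 FPKM were neighbours whose ranges over libraries overlapped. Abcg1 at 13.6 FPKM and Nr1h2 at 11.7 FPKM overlapped likewise. Soat1 at 3.33 FPKM and Abca1 at 2.41 FPKM were the lowest, again with overlapping ranges. Abcg1 was the more abundant of the cholesterol exporters in every library. The 9 genes together took between 0.21% and 0.277% of the reads on genes.

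**Figure D1:**
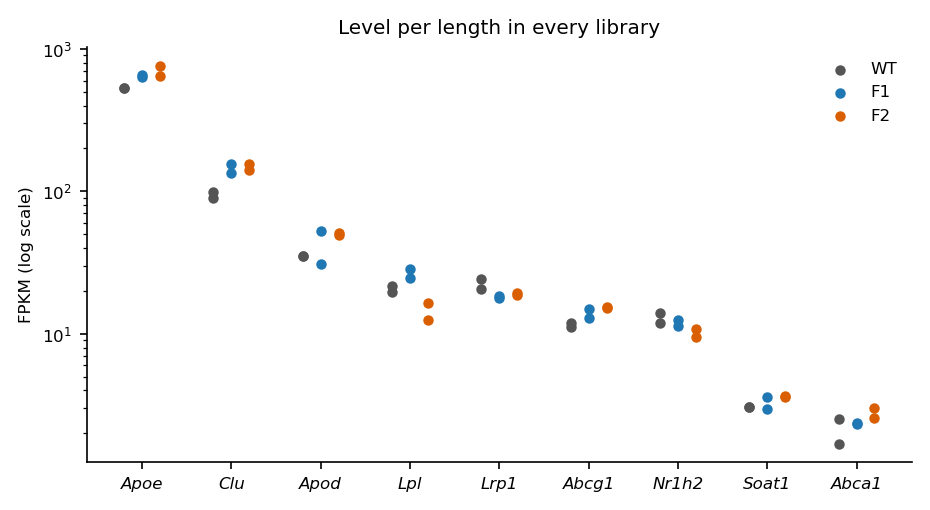
FPKM of each gene (log scale) in every library, with grey points for WT, blue for F1 and orange for F2. Apoe, with a mean of 627 FPKM, lies above all other genes in every library, and Abca1, with a mean of 2.41 FPKM, is among the lowest.

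Within a gene, libraries were compared as CPM, and groups with the exact test of edgeR on the counts. A gene was called when its adjusted p (Benjamini-Hochberg over all 17421 tested genes) was under 0.01. Against WT, 1 of the 9 genes was called in F1, namely Clu, which rose, whereas 12.3% of all tested genes were called, 3.77% as higher and 8.54% as lower. In F2, 3 of the 9 genes were called: Clu and Apoe rose and Lpl fell. The background there was 12% of all tested genes, with 3.86% higher and 8.1% lower. Between F2 and F1, 1 of the 9 genes was called, namely Lpl, which was lower in F2, against 0.74% of all genes. The median log2 fold change of the 9 genes was 0.24 in F1 and 0.40 in F2, beside medians of 0.01 and 0.00 over all tested genes. The F1 and F2 comparisons share the same WT libraries and are therefore not independent.

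**Figure D2:**
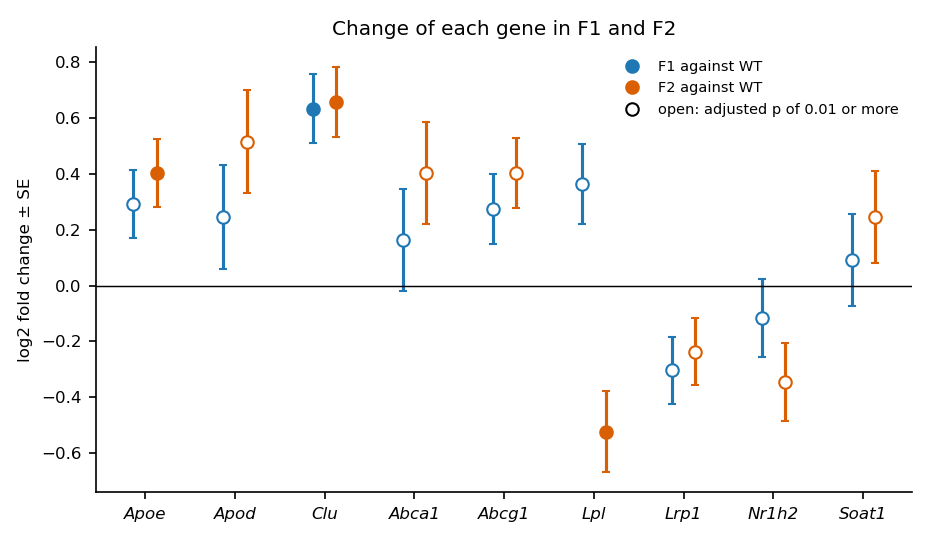
Log2 fold change against WT of each gene in F1 (blue) and F2 (orange), where error bars are the standard error of the fold change and filled points mark an adjusted p under 0.01. Clu is filled in both generations near 0.6, Apoe in F2 alone at 0.40, and Lpl lies at 0.36 in F1 and at -0.52 in F2.

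Of the secreted carriers, Clu rose in both generations, Apoe rose in F2 and Apod did not pass in either. Clu encodes clusterin (apolipoprotein J), a chaperone and lipid carrier secreted mainly by astrocytes, and lies on mm9 chr14:66587320-66600385. It measured 338 and 306.5 CPM in the WT libraries, 464 and 536 CPM in F1, and 534 and 482.5 CPM in F2. All 4 libraries of F1 and F2 were above both WT libraries, and the generations overlapped. Clu was 1.55-fold higher in F1 (log2 fold change 0.63 ± 0.12 SE, adjusted p = 1.26e-05) and 1.58-fold higher in F2 (0.66 ± 0.12, adjusted p = 5.6e-06). The difference of F2 from F1 was 0.02 ± 0.12 on the log2 scale (adjusted p = 1). Clu was called in both generations in every alternative tried, with log2 fold changes of 0.53 to 0.75 (F1) and 0.59 to 0.73 (F2) and adjusted p-values up to 0.00798 and 0.00709.

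Apoe encodes the main carrier of cholesterol in the brain and lies on mm9 chr7:20281458-20284515. It measured 1055 and 1047 CPM in WT, 1268 and 1306 CPM in F1, and 1506 and 1272 CPM in F2. The WT libraries were almost equal, every F1 and F2 library was above them, and F2 replicate 1 was the highest. In F2 Apoe was 1.32-fold higher (log2 fold change 0.40 ± 0.12 SE, adjusted p = 0.00789). In F1 it was 1.23-fold higher without passing the threshold (0.29 ± 0.12, adjusted p = 0.0666), and F2 differed from F1 by 0.11 ± 0.12 (adjusted p = 0.952). The F2 call was close to the threshold: edgeR's quasi-likelihood test gave an adjusted p of 0.0357, and over all alternatives the adjusted p ranged from 0.00212 to 0.261. It was lost without WT replicate 1 (adjusted p = 0.0756), without WT replicate 2 (0.0624) and without F2 replicate 1, where the log2 fold change was 0.28 (adjusted p = 0.261).

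Apod encodes apolipoprotein D, a carrier of small lipids made by glia and by cells of the meninges and vessels, and lies on mm9 chr16:31296278-31314894. It measured 91.2 and 90.5 CPM in WT, 80.3 and 135 CPM in F1, and 128 and 132 CPM in F2. The F1 libraries lay on either side of WT, while both F2 libraries were above it. The log2 fold change was 0.51 ± 0.19 SE in F2 (adjusted p = 0.0319) and 0.25 ± 0.19 in F1 (adjusted p = 0.372), so neither passed. A single F1 library decided the F1 value: it was 0.59 without F1 replicate 1 (adjusted p = 0.000327) and -0.17 without F1 replicate 2 (adjusted p = 0.499), within a range of 0.000327 to 0.607 over all alternatives. Without either F1 library the F2 value also passed, at adjusted p = 7.91e-05 and 7.52e-05, while its log2 fold change moved only between 0.50 and 0.54 over the alternatives, whose adjusted p ran up to 0.223.

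**Figure D3:**
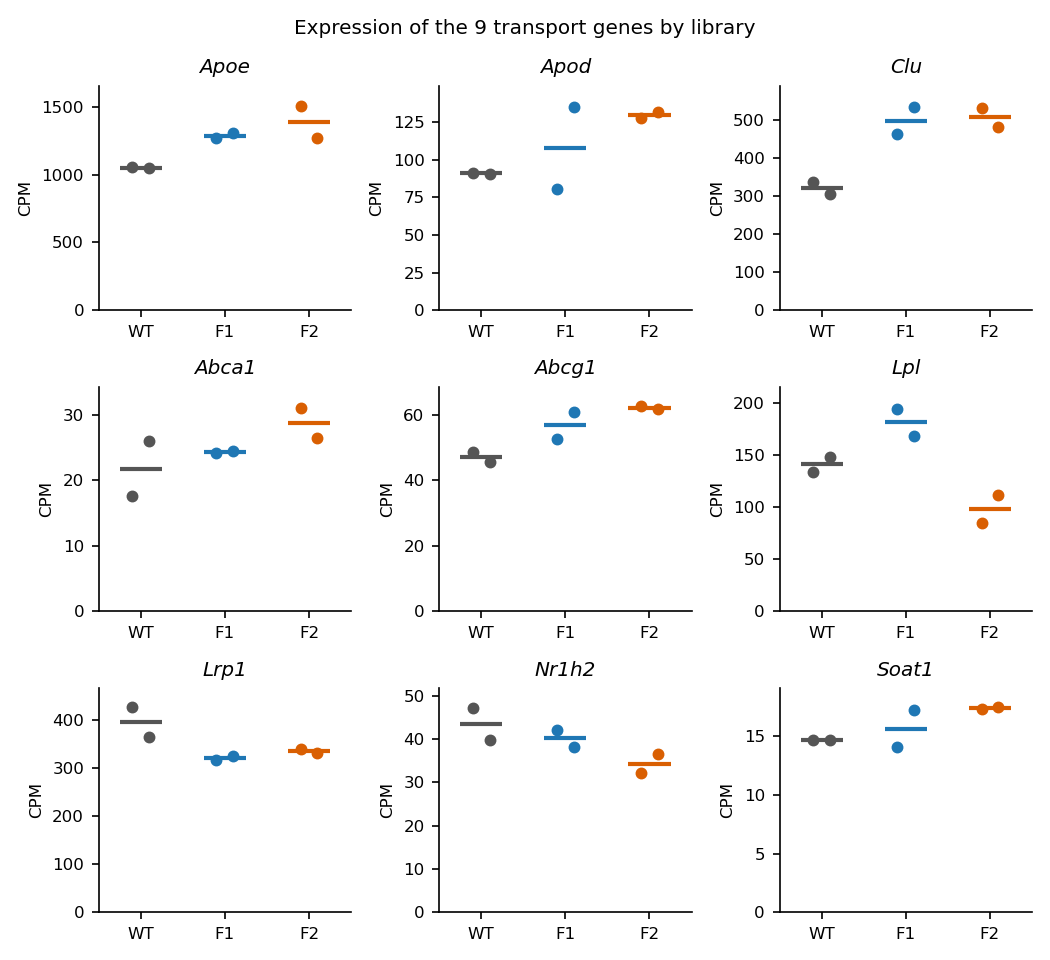
CPM of each gene by library, where points are the 2 libraries of each group, horizontal bars are group means and each vertical axis starts at 0. Clu and Apoe lie above WT in all 4 libraries of F1 and F2, the F1 libraries of Apod differ at 80.3 and 135 CPM, and Lpl lies above WT in F1 and below it in F2.

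The cholesterol exporters did not pass in either generation, although both were above WT in both F2 libraries. Abcg1, which passes cholesterol to lipoprotein particles (mm9 chr17:31194643-31252722), measured 48.5 and 45.5 CPM in WT, 52.7 and 60.9 CPM in F1, and 62.5 and 61.7 CPM in F2. Every F1 and F2 library was above WT. Its log2 fold change was 0.40 ± 0.12 SE in F2, with an adjusted p of 0.0101 that missed the threshold narrowly, and 0.27 ± 0.12 in F1 (adjusted p = 0.101). It passed in F2 under 7 of 17 alternatives, and its adjusted p over them ranged from 0.00347 to 0.125. Abca1, which starts the loading of lipid onto apolipoproteins (mm9 chr4:53043659-53172767), measured 17.6 and 25.9 CPM in WT, 24.2 and 24.5 CPM in F1, and 31 and 26.4 CPM in F2. The WT libraries lay far apart, the F1 libraries fell between them, and the F2 libraries were above both. Its log2 fold change was 0.40 ± 0.18 in F2 (adjusted p = 0.102) and 0.16 ± 0.18 in F1 (adjusted p = 0.583). In F2 this value turned on the WT libraries: it was 0.72 without WT replicate 2 (adjusted p = 0.00354) and 0.15 without WT replicate 1, with adjusted p-values up to 0.691 over the alternatives.

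Lpl was the 1 gene of the 9 that passed the test between F2 and F1. The lipase it encodes acts on lipoprotein particles, and in the hippocampus the gene is known to be expressed by pyramidal neurons as well as by microglia (mm9 chr8:71404390-71431347). It measured 134 and 148 CPM in WT, 194 and 169 CPM in F1, and 84.5 and 111.5 CPM in F2. Both F1 libraries were above WT, both F2 libraries were below it, and F2 replicate 1 was the lowest. Between the generations Lpl was 0.541-fold as high in F2 as in F1 (log2 fold change -0.89 ± 0.14 SE, adjusted p = 7.9e-07). Against WT it was lower in F2 (-0.52 ± 0.14, adjusted p = 0.00335), and in F1 it was 1.29-fold higher without passing (0.36 ± 0.14, adjusted p = 0.0544). The quasi-likelihood test of edgeR gave adjusted p-values of 0.0242 for F2 against F1 and 0.0223 for F2 against WT, neither under 0.01. Over the alternatives the adjusted p of F2 against F1 ran from 1.45e-08 to 0.0242, and the log2 fold change stayed between -1.10 and -0.70. It was -0.70 without F2 replicate 1 (adjusted p = 0.0115). The F2 value against WT lost its call without WT replicate 1 (adjusted p = 0.0159), without WT replicate 2 (0.0732) and without F2 replicate 1, where it was -0.33 (0.24), in a range from 0.000577 to 0.24.

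Lrp1, the receptor that takes up particles carrying apolipoprotein E (mm9 chr10:126975217-127058204), was lower in every F1 and F2 library than in WT and did not pass. It measured 427 and 365 CPM in WT, 317 and 325 CPM in F1, and 340 and 332 CPM in F2. The log2 fold change was -0.30 ± 0.12 SE in F1 (adjusted p = 0.0536) and -0.24 ± 0.12 in F2 (adjusted p = 0.15). Without WT replicate 1 it was -0.18 and -0.11 (adjusted p = 0.444 and 0.694).

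The sterol sensor and the esterifying enzyme did not pass in either generation. Nr1h2 (mm9 chr7:51804986-51809321) measured 47.2 and 39.8 CPM in WT, 42.1 and 38.1 CPM in F1, and 32 and 36.5 CPM in F2. Its F1 libraries overlapped WT and its F2 libraries were below WT, with log2 fold changes of -0.12 ± 0.14 SE (adjusted p = 0.614) and -0.35 ± 0.14 (adjusted p = 0.063). Soat1 (mm9 chr1:158358239-158404459) measured 14.7 CPM in both WT libraries, 14.1 and 17.2 CPM in F1, and 17.3 and 17.5 CPM in F2. The log2 fold changes were 0.09 ± 0.17 (adjusted p = 0.765) and 0.25 ± 0.17 (adjusted p = 0.313). Nr1h3, which encodes the other liver X receptor, was low at 1.26 FPKM, beside 11.7 FPKM for Nr1h2, with log2 fold changes of 0.06 and -0.20 (adjusted p = 0.938 and 0.686).

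Taking the 9 genes by library order alone, 4 lay above WT in both F1 libraries (Apoe, Clu, Abcg1 and Lpl) and 1 below (Lrp1), where 29.8% and 30.6% of all tested genes did so. In F2, 6 lay above WT in both libraries and 3 below, where the shares over all genes were 31% and 32%.

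Summed markers of astrocytes and microglia were higher in the same libraries as Clu and Apoe, although few single markers passed in F1. Of 12 astrocyte markers, 1 rose in F1 and 6 rose in F2, with median log2 fold changes of 0.29 and 0.46, and of 10 microglia markers, 1 rose in F1 and 6 rose in F2, with medians of 0.35 and 0.51. Over all tested genes, 3.77% were called higher and 8.54% lower in F1, and 3.86% higher and 8.1% lower in F2. These shares are the background for all marker counts given here and below. The summed astrocyte markers ranged over 3066 to 3265 CPM (WT), 3526 to 4266 CPM (F1) and 4045 to 4598 CPM (F2). The summed microglia markers ranged over 163 to 165 CPM (WT), 199 to 236 CPM (F1) and 230 to 262.5 CPM (F2). Both sums were thus higher in every F1 and F2 library than in WT, as Apoe and Clu were. This was not particular to astrocytes and microglia. Oligodendrocyte precursor markers summed to 121 to 133 CPM (WT), 186 to 190 CPM (F1) and 166 to 205.5 CPM (F2). Endothelial and pericyte markers summed to 169.5 to 194 CPM (WT), 200 to 230 CPM (F1) and 223 to 235 CPM (F2). The sums of the other marker lists overlapped WT in F1, in F2 or in both. Among the abundant astrocyte markers, the glutamate transporter gene Slc1a2 rose in F2 (log2 fold change 0.56, adjusted p = 0.00066, and 0.0595 and 0.0744 without WT replicate 1 and F2 replicate 1) and Slc1a3 did not pass (0.47, adjusted p = 0.011). The F2 counts depended on single libraries: without F2 replicate 1 they were 0 of 12 astrocyte and 1 of 10 microglia markers, and without WT replicate 1 they were 1 and 1, while the medians lay at 0.35 and 0.44, and at 0.45 and 0.61. Without WT replicate 2 the F2 counts were 3 and 1, and edgeR's quasi-likelihood test called 1 and 1. In bulk tissue more cells of a type and more RNA per cell cannot be told apart.

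The same genes were also read as ratios to the astrocyte sum, and Apoe to the microglia sum as well. Apoe was 34.4 and 32.1 CPM per 100 CPM of the astrocyte list in WT, 35.9 and 30.6 in F1, and 32.7 and 31.4 in F2, so the groups overlapped. Clu was 11 and 9.39 CPM per 100 CPM of the astrocyte list in WT, 13.2 and 12.6 in F1, and 11.6 and 11.9 in F2. By this ratio every F1 and F2 library was above both WT libraries for Clu, although the F2 libraries were close to WT replicate 1. Abcg1 overlapped WT by the same ratio, at 1.39 to 1.58 CPM in WT, 1.43 to 1.49 in F1 and 1.36 to 1.53 in F2. Per 100 CPM of the microglia list, Apoe was 640 and 643 CPM in WT, 636 and 554 in F1, and 574 and 553 in F2. By that ratio every F1 and F2 library was below both WT libraries, although F1 replicate 1 at 636 was close to WT. The part of glial content in these differences was not tested further.

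For Apod, the libraries also differed in markers of myelin and of the meninges. The summed oligodendrocyte markers measured 1134 and 2048 CPM in WT, 3045 and 2301 CPM in F1, and 1582 and 2977 CPM in F2, and 3 of 12 rose in F1 (Mag, Cnp and Cldn11) and 2 of 12 in F2 (Cnp and Cldn11). Each of these calls was lost without WT replicate 1, with adjusted p-values of 0.123, 0.0675 and 0.0185 in F1 and of 0.115 and 0.108 in F2. Mag and Cnp also lost the F1 call without F1 replicate 1 (adjusted p = 0.0375 and 0.0161), and Cnp and Cldn11 the F2 call without F2 replicate 2 (adjusted p = 0.155 and 0.166). The summed meningeal markers measured 132 and 160.5 CPM in WT, 89.3 and 179.5 CPM in F1, and 255 and 153 CPM in F2, with Lum the one of 6 that fell in F1, a call that was lost without F1 replicate 1 or either WT library (log2 fold change -0.70 to -0.43). F1 replicate 1 had the lowest Apod, the lowest meningeal sum and the highest oligodendrocyte sum of all libraries. The part of these cells in the Apod values was not tested.

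**Figure D4:**
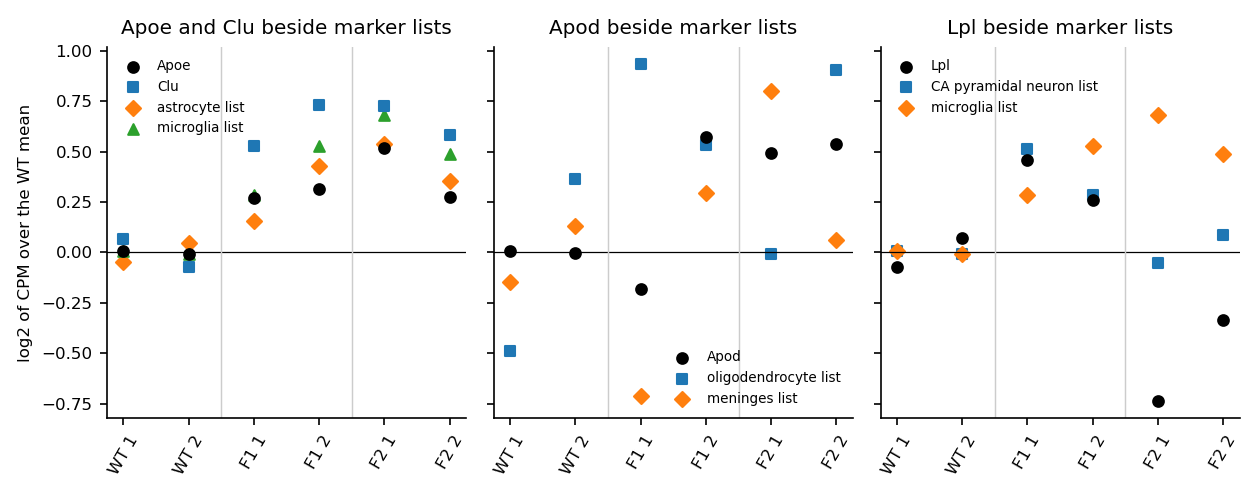
Log2 of CPM over the WT mean in each library, for Apoe and Clu beside summed astrocyte and microglia markers, for Apod beside summed oligodendrocyte and meningeal markers, and for Lpl beside summed CA pyramidal neuron and microglia markers. In F2 the Lpl points fall to -0.74 and -0.34 while the CA pyramidal sum stays at -0.05 and 0.09 and the microglia sum is at 0.68 and 0.49.

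The markers around Lpl were mixed. Of 7 markers of the CA fields and mossy cells, Bok and Cpne4 rose and Csf2rb2 fell in F1, and Mpped1 rose and Csf2rb2 fell in F2, while their sum overlapped between groups at 459 to 504 CPM (WT), 442 to 510 CPM (F1) and 476 to 484 CPM (F2). Of these calls, Csf2rb2 held without any 1 library, whereas Bok was lost without WT replicate 2 or F1 replicate 2, Cpne4 without F1 replicate 2 or either WT library, and Mpped1 without any 1 of the WT and F2 libraries. A further list of 8 genes of CA pyramidal neurons, Neurod6 among them, was added after the likeness described below had been seen. Neurod6 was found there by its likeness to Lpl, so the list and ratios to it are not independent of Lpl. The list sum was 768 and 758 CPM in WT, 1089 and 930.5 CPM in F1, and 736 and 811 CPM in F2. It was higher in F1 and overlapped WT in F2. Lpl was 17.4 and 19.5 CPM per 100 CPM of that list in WT, 17.8 and 18.1 in F1, and 11.5 and 13.7 in F2. On this ratio F1 fell within WT and both F2 libraries were below it. Per 100 CPM of the microglia list, Lpl was 81.3 and 90.8 CPM in WT, 97.1 and 71.5 in F1, and 32.2 and 48.5 in F2. Granule neuron markers summed to 1215 to 1245 CPM (WT), 1039 to 1253 CPM (F1) and 1360 to 1381 CPM (F2), and of 7 such genes Trpc6 fell in both generations while Prox1, Calb1 and Rbfox3 did not pass. The F2 call of Trpc6 was lost without WT replicate 1 (-0.44, adjusted p = 0.033) and without F2 replicate 2 (-0.67, adjusted p = 0.0161). The part of pyramidal neurons in the Lpl values was not tested beyond these ratios.

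Each marker of these lists had reads in at least 1 library. Of 6 genes of oligodendrocyte precursors, 3 rose in F1 (Pdgfra, Olig1 and Gpr17) and 2 in F2 (Pdgfra and Olig1), and without WT replicate 1 the calls of Pdgfra and Olig1 were lost in both generations. Olig1 also lost its F1 call without any other 1 of the WT and F1 libraries and its F2 call without F2 replicate 2, and Pdgfra its F1 call without F1 replicate 2. Of 10 endothelial and pericyte genes, Pecam1 and Abcb1a rose in F2, but Pecam1 lost its call without WT replicate 2 or F2 replicate 1 (adjusted p = 0.0133 and 0.0246) and Abcb1a without any 1 of the WT and F2 libraries (adjusted p = 0.0102 to 0.0478). Of 8 interneuron genes, Slc32a1 rose in both generations and Gad2 in F2, and the F2 calls were lost without F2 replicate 2 (adjusted p = 0.0257 and 0.0272), that of Slc32a1 also without WT replicate 2 (0.0141) and that of Gad2 without WT replicate 1 (0.0382). Of 8 genes of choroid plexus and ependyma, 3 were high enough to test, and Kl, Foxj1 and Ttr did not pass.

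The genes most like each called member were found by the root mean square distance between log2 CPM patterns, each centred over the 6 libraries, among the 10074 genes that averaged 10 CPM or more. Nearest to Apoe were Zfp655, Paip2b and Pcyt1a (distances 0.02, 0.03 and 0.03 on the log2 scale). Nearest to Clu were Itgb5, Pptc7 and Baalc (0.04, 0.05 and 0.05). Nearest to Lpl were Thsd4, Slc9a4 and Neurod6, and these were less close (0.10 each). Neurod6, a transcription factor gene of pyramidal neurons, measured 121 and 160 CPM in WT, 183 CPM in both F1 libraries, and 85.05 and 120 CPM in F2.

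The wider pathway was described through 110 other genes of lipid transport, of which 94 were tested. In F1, 3 rose and 6 fell, and in F2, 5 rose and 4 fell. The median log2 fold change of the 94 genes was 0.05 in F1 and 0.04 in F2, beside 0.01 and 0.00 over all tested genes. In each generation 9 of 94 were thus called, a share below the 12.3% and 12% of all genes. Of these, 4 were called in both generations, and most genes called in a single comparison are named here with their values already known. These counts moved with single libraries, to 0 in F1 without F1 replicate 2 and 2 without WT replicate 1, and to 1 in F2 without F2 replicate 1 and 2 without WT replicate 1, and edgeR's quasi-likelihood test called 1 in F1 and 3 in F2. The F2 call of Scarb2 held in all 17 alternatives, and every other call of the wider list was lost without at least 1 of the 6 libraries, its direction being the same without any of them.

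Among 23 tested lipoprotein receptors and their partners, Scarb2 changed the most. It encodes a lysosomal membrane protein of the scavenger receptor family and measured 16.2 and 17.2 CPM in WT, 24.7 and 36.1 CPM in F1, and 39.7 and 31.5 CPM in F2. It rose in both, with a log2 fold change of 0.86 ± 0.19 SE in F1 (adjusted p = 0.000115) and of 1.09 ± 0.19 in F2 (adjusted p = 4.81e-07). The F1 call was lost without WT replicate 1 (0.82, adjusted p = 0.0133) and without F1 replicate 2 (0.57, adjusted p = 0.0247). Mylip, which encodes a ubiquitin ligase that marks lipoprotein receptors for breakdown and is itself a liver X receptor target, rose in F2 (0.64 ± 0.20, adjusted p = 0.00923), as did Reln, which encodes a secreted ligand of the receptors VLDLR and LRP8 (0.49 ± 0.15, adjusted p = 0.00875). Without F2 replicate 1 Mylip was at 0.39 and Reln at 0.33 (adjusted p = 0.351 and 0.297). Lrp1b fell in F1 (-0.44 ± 0.13, adjusted p = 0.00578) and was at -0.27 without WT replicate 2 (adjusted p = 0.219). Sort1, the most abundant by CPM, did not pass (0.31 and 0.25, adjusted p = 0.0387 and 0.101), nor did Vldlr (0.19 and 0.29) or Lrp8 (-0.13 and -0.22).

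Among 10 tested transporters of the ABC family, Abca7 and Abca8b fell in both generations. Abca7, which encodes a phospholipid transporter, measured 32.3 and 22.3 CPM in WT, 16.9 and 13.6 CPM in F1, and 11 and 16 CPM in F2. The log2 fold changes were -0.84 ± 0.22 SE in F1 (adjusted p = 0.00184) and -1.01 ± 0.22 in F2 (adjusted p = 0.00013). Abca8b was at -0.58 ± 0.15 (adjusted p = 0.00197) and -0.54 ± 0.15 (adjusted p = 0.00467). The WT libraries of Abca7 differed, and every F1 and F2 library was below them. Without WT replicate 1 Abca7 was at -0.55 in F1 and -0.72 in F2 (adjusted p = 0.144 and 0.0478), and without WT replicate 2 Abca8b was at -0.43 and -0.39 (adjusted p = 0.0989 and 0.137). Abca2, the most abundant of the 10, did not pass (-0.20 and -0.27).

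Of 13 partners and sterol regulators of the liver X receptors, Insig1 rose in F2 (log2 fold change 0.53 ± 0.13 SE, adjusted p = 0.000494). INSIG1 retains the sterol regulatory element binding proteins in the endoplasmic reticulum. Without WT replicate 1 Insig1 was at 0.44 in F2 (adjusted p = 0.0498). Ncor1 did not pass (0.13 and 0.19). Of 9 tested genes listed under lipase partners and lipid transfer, Pltp, the phospholipid transfer protein gene, rose in F2 (0.59 ± 0.15, adjusted p = 0.00208). Hdlbp, the most abundant of that list, did not pass (0.09 and 0.02).

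Of 7 genes of cholesterol ester storage, Soat2 fell in both generations, though at a low level of 0.375 FPKM (log2 fold change -1.28 ± 0.38 SE, adjusted p = 0.00618 in F1, and -1.42 ± 0.40, adjusted p = 0.00423 in F2), and Nceh1, the most abundant, did not pass (0.27 and 0.30). Soat2 was at -0.999 in F1 without F1 replicate 2 (adjusted p = 0.16) and at -1.22 in F2 without F2 replicate 1 (adjusted p = 0.158). Of 22 genes of intracellular cholesterol transport, Stard4 rose in F1 (0.60 ± 0.18, adjusted p = 0.00642), Gramd1c fell in F1 (-0.84 ± 0.23, adjusted p = 0.00326) and Gramd1a fell in F2 (-0.51 ± 0.13, adjusted p = 0.000913), while Gramd1b did not pass (0.01 and -0.03). The 4 cholesterol hydroxylase genes did not pass, including Cyp46a1, the neuronal enzyme that lets cholesterol leave the brain (-0.19 and -0.22). Nor did the 6 tested genes listed by symbol as other apolipoproteins, of which Apoo was the most abundant (-0.20 and -0.22). The symbol alone does not show that such a gene carries lipid.

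**Figure D5:**
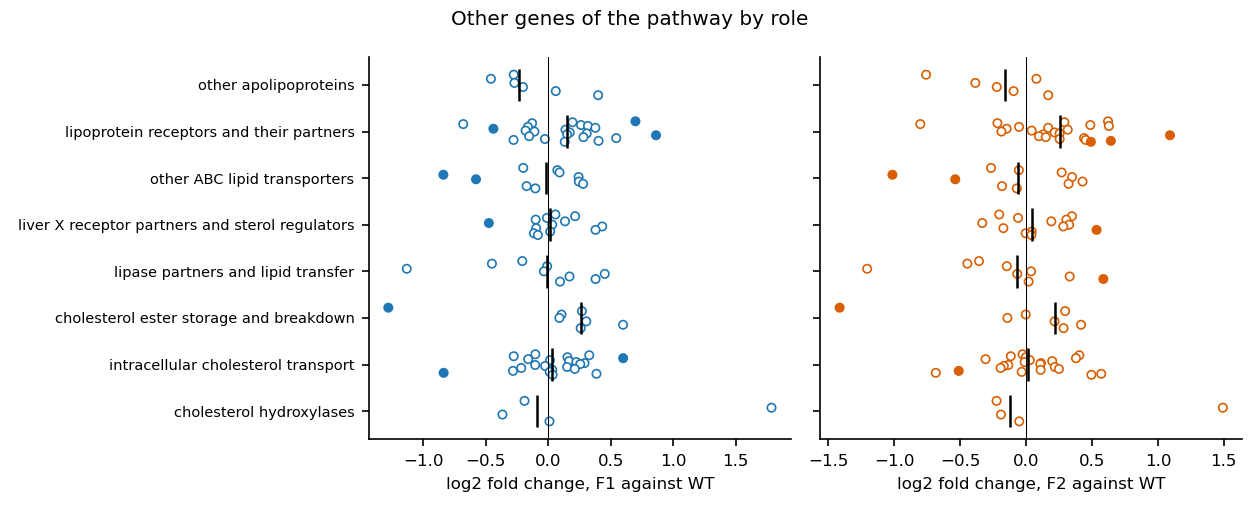
Log2 fold change against WT of the 94 other tested genes of lipid transport by role, in F1 (left) and F2 (right), where filled points passed the adjusted p threshold of 0.01 and black bars are the medians of each role. Calls are scattered over the roles in both directions, with 3 higher and 6 lower in F1 and 5 higher and 4 lower in F2.

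Neighbours of Apoe on chromosome 7 were examined because they lie in a dense gene cluster. Of 8 neighbours 6 were tested, and Bcam, a cell adhesion gene, rose in F2 (log2 fold change 0.72 ± 0.19 SE, adjusted p = 0.00163) and was at 0.50 ± 0.19 in F1 (adjusted p = 0.0382). The F2 call was lost without WT replicate 1 (0.63, adjusted p = 0.0821), without F2 replicate 1 (0.67, 0.0728) and without F2 replicate 2 (0.78, 0.0194). Tomm40, the mitochondrial import gene next to Apoe, measured 73.6 and 68.4 CPM in WT, 82.4 and 67.9 CPM in F1, and 63.6 and 72.95 CPM in F2, and the groups overlapped. Clptm1 was above WT in every F1 and F2 library without passing (0.29 and 0.23), and Pvrl2 (-0.02 and -0.01), Relb (0.28 and -0.24) and Apoc1 (-0.46 and 0.08) did not pass. Apoc4 and Apoc2 were at or near 0 CPM in all libraries, and neither was tested.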

How the data were processed

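RNA-Seq libraries were aligned by the authors with TopHat to mm9 (NCBIM37) as single-end reads of 50 bp, and reads were assigned to genes with HTSeq in its strict intersection mode. The deposited values are raw counts per gene, 1 column per library. Lines of the tables that name no gene, such as reads on no feature (12.2% to 20.7% of uniquely aligned reads), were left out of library sizes. The share on no feature was 17.7% and 20.7% in WT, 13.8% and 12.2% in F1, and 13.9% and 17.4% in F2. It was thus highest in the WT libraries, although F2 replicate 2 was close to WT replicate 1. Its bearing on the fold changes was not tested. Counts were filtered with filterByExpr, TMM-scaled and tested with edgeR 4.0.16 in R 4.3.3 (exact test), with tagwise dispersion estimated over all 6 libraries and Benjamini-Hochberg adjustment over 17421 genes. The threshold was an adjusted p under 0.01, and standard errors came from the fitted dispersion by the delta method. FPKM used exon lengths from GENCODE M1, which named 99.2% of tested genes. The library strand setting was not given in the sources used here, so reads of overlapping antisense genes could not be told apart.

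The 9 genes, the wider list, the marker lists and the neighbours of Apoe were chosen with earlier results of these data known. Genes named from the lists were those called in both generations, the most abundant of each role or marker list, all neighbours of Apoe, and the 3 tested genes nearest to each called gene of the 9, and any others were named after their values were seen. Alternatives were the quasi-likelihood test, DESeq2 1.42.0, replicate blocks, other scalings and filters, a dispersion from the compared groups alone, a threshold of 0.05 and leaving out each library. Replicates of a group differed beyond sampling noise (chi-square per degree of freedom 18.5 to 23). Some genes of these lists are not reported here by name.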

Additional observations from a re-analysis of the deposited data

Results flagged for a closer look

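Lpl differed between the generations: its log2 fold change of F2 against F1 was -0.89 (adjusted p = 7.9e-07, edgeR exact test), with both F1 libraries above and both F2 libraries below WT. A pair of cell type markers also differed between F2 and F1 by the same test. Bok, from the list of the CA fields and mossy cells, was at -0.75, and Lum, a gene of meningeal fibroblasts, was at 0.73. In edgeR's quasi-likelihood test none of the 3 passed, and the values of Bok and Lum ranged from -1.005 to -0.54 and from 0.55 to 0.93 over the alternatives, with Bok losing its call without F1 replicate 2 or F2 replicate 1 and Lum without F1 replicate 1, F2 replicate 1 or F2 replicate 2.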

How the results depend on the processing

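Clu kept its direction and its call in F1 and F2 in all alternatives. Against 2144 genes called in F1 and 2084 in F2, the quasi-likelihood test called 1029 and 997, and 1 and 1 of the 9 genes, with 0 between F2 and F1, where Lpl had an adjusted p of 0.0242 and the exact test called 1. With the replicate number as a block it called 848 and 758 genes, and 1, 1 and 0 of the 9. A likelihood-ratio test that kept this replicate block called 1743 and 1758 genes, and with crossed numbers, chosen after seeing the data, 2679 and 2752. The replicate differences did not correlate positively between groups (-0.01 for WT and F1, -0.09 for WT and F2, and -0.26 for F1 and F2). They thus showed no pairing by equal replicate number, but they cannot exclude that libraries were paired in another way. The negative value for F1 and F2 was not tested further. A threshold of 0.05 gave 3623 and 3606 genes and 5 of the 9 in F2, and a dispersion from the compared groups also gave 5. Leaving out 1 library at a time, with the remaining library assumed to vary like the other groups, gave 988 to 2043 genes in F1 and 703 to 2585 in F2, and 1 to 2, 1 to 5 and 0 to 2 of the 9 genes in F1, F2 and F2 against F1. Values that changed sign were all uncalled with every library in: without 1 library the log2 fold change in F1 ranged from -0.17 to 0.59 for Apod, from -0.089 to 0.48 for Abca1, from -0.22 to 0.013 for Nr1h2 and from -0.052 to 0.24 for Soat1, and for F2 against F1 from -0.0135 to 0.23 for Apoe, from -0.060 to 0.70 for Apod and from -0.078 to 0.13 for Clu. The cause was not tested. For the 9 genes 422 values kept direction and side of the threshold, 13 gained a call, 16 lost one and 8 changed sign. With 2 libraries a group, small changes in low genes such as Abca1 and Soat1 could not be resolved.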
